A study of Mus musculus with 47 samples.

Results

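Lamp5, Ndnf, Reln, Cxcl14 and Nxph1 are genes that are used to recognise neurogliaform cells among cortical GABAergic interneurons. They are 5 of the 22800 gene symbols of the deposited count table and were taken by name, not by their values. Their reads were followed cell by cell in 26 neurons labelled NPY-positive: 10 came from the auditory cortex (AC), 13 from hippocampal area CA3 and 3 from CA1, and the number of the 5 genes present together was counted in each cell. At least 1 read was found in 10 or more of these cells for 4 of the 5 genes, all but Cxcl14, as for 6597 genes of the table.

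Each library was made from the cytosol of 1 neuron that was drawn into a patch pipette in a brain slice from mice aged 3 to 8 weeks, of both sexes. The methods name the strain NPY-hrGFP and the series text NPY-EGFP. In these mice a green fluorescent protein marks cells that express neuropeptide Y, and no group received a treatment. AC cells lay in layers 1 and 2 and were patched in coronal slices. The CA3 cells lay at or near stratum lacunosum moleculare and were patched in horizontal slices, so plane and region cannot be told apart. For the CA1 cells the labels give the region only. A total of 8 mice was used and no label ties a cell to a mouse. A region was therefore taken as 1 sample, regions were compared without a test, and each SD given here is a description of the cells at hand.

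Reads on genes numbered 1715012 to 6265431 per cell in AC, 2229519 to 7949918 in CA3 and 601781 to 3202430 in CA1. The table holds 21 further columns, among them 10 of AC and 8 of CA3, which were kept out of the main comparisons. Column N4X of AC is one of these, and its counts were nearly those of N4 (Pearson correlation 0.9998 over genes). For the other 399 pairs of columns of 1 region the highest value was 0.977. Gad1 and Gad2, the 2 genes for the GABA-producing enzyme, and Npy were read in every one of the 26 cells. Of the markers of other interneuron classes, Sst, Vip, Calb2 and Chat had no read in any of them, Pvalb was read in 2 CA3 cells and Tac1 in 1, while Cck was read in 3 AC, 10 CA3 and 2 CA1 cells. Of 7 markers of Cajal-Retzius cells, which also make reelin and Ndnf in the same layers, 0 were read in AC and CA1 and 2 in CA3, Lhx5 and Cacna2d2, with at most 13.1 CPM in a cell for the whole list. Lists of other cell types summed to at most 4570 CPM in a cell for microglia, 3015 for astrocytes, 1043 for oligodendrocytes, 213 for their precursors, 204 for pyramidal cells and 33.7 for endothelial cells. Levels are given as CPM, which scales a cell's reads to a total of 1000000.

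Neurogliaform cells are small GABAergic neurons with a dense local axon that releases GABA into the surrounding space and so acts on many neighbours at once. They come from the caudal or from the medial ganglionic eminence, embryonic zones marked by Prox1 and by Lhx6. Lamp5 is a neuronal membrane protein related to lysosome-associated proteins and gives its name to a transcriptomic class that includes these cells. Reln encodes reelin and Ndnf another glycoprotein, both secreted. Nxph1 encodes neurexophilin 1, a secreted glycoprotein that binds alpha-neurexins at the synapse, and Cxcl14 encodes a chemokine that some caudal interneurons make.

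Lamp5 lies on chromosome 2 of GRCm38, from 136052239 to 136069917 on the plus strand. Ndnf lies on chromosome 6 from 65671590 to 65712326 and Nxph1 on the same chromosome from 8948431 to 9249032, both on the plus strand. Reln spans 21884454 to 22344702 of chromosome 5 and Cxcl14 spans 56288643 to 56296551 of chromosome 13, both on the minus strand. In the annotation 3 genes on the same strand and 4 on the other overlap Reln, and whether the counting used the strand was not settled, so Reln counts may hold reads of these genes. A processed pseudogene on the same strand overlaps Nxph1. Windows of 250 bases before to 50 after the start were taken from RefSeq (GRCm38.p6) to show the start regions of the 3 genes that were read together in most cells and of Cxcl14, which was not. The table gave windows for 4 of the 5 genes, all but Ndnf. Capitals mark GGGCGG and CACGTG on either strand, with neighbouring matches of GGGCGG overlapping in Cxcl14. For Lamp5 the first of 2 windows is shown.
Lamp5, chr2:136052089-136052388, plus strand: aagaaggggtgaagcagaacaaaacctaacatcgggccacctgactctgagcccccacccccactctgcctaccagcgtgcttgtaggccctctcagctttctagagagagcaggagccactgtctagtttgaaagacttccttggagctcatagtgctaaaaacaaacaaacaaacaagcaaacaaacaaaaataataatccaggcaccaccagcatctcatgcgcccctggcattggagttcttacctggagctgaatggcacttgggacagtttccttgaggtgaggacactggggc
Reln, chr5:22344656-22344955, minus strand: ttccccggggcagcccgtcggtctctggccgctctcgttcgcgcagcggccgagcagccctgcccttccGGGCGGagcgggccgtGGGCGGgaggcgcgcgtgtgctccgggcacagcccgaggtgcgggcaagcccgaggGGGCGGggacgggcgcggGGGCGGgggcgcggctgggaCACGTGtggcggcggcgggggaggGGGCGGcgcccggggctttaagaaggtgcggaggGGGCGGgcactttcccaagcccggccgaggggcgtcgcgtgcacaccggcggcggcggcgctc
Nxph1, chr6:8949769-8950068, plus strand: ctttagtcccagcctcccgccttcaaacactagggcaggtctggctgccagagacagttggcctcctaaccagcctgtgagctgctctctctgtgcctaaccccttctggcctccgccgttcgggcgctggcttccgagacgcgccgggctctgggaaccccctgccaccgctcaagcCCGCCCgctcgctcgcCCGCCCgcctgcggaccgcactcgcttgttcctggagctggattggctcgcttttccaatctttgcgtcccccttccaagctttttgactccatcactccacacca
Cxcl14, chr13:56296502-56296801, minus strand: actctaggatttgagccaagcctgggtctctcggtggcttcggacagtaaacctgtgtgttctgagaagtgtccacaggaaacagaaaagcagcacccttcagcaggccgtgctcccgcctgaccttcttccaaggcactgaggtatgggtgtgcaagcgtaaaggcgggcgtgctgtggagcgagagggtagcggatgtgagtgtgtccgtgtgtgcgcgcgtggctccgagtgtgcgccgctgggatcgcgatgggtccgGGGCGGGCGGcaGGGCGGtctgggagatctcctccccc

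The start regions differ in base composition. The Reln window has a GC content of 80.7% with 47 CG pairs, 6 matches of GGGCGG and 1 of CACGTG. The motif TATAAA, also searched on both strands, is in 0 of these 4 windows and in 13.6% of all windows, and TAATTA is in 0 of the 4 and in 5.29% of all. Lamp5 stands at 50.7% GC with 3 CG pairs and no match of either motif. Nxph1 has 64.0% GC with 21 CG pairs and 2 GGGCGG matches, and Cxcl14 has 62.7% with 22 and 3. Over all 32851 windows the median was 52.7% GC with 7 CG pairs, 35.7% held GGGCGG and 7.15% held CACGTG. Lamp5 and Reln lie far apart in these letters, and Nxph1, which was read together with both in most cells, lies close to Cxcl14. A link of the start regions to joint presence was not tested.

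Of the 5 genes, 3 were present together in most of the cells. Lamp5, Reln and Nxph1 were all read in 21 of the 26 cells, 9 of 10 in AC, 9 of 13 in CA3 and 3 of 3 in CA1. Each was also widely read by itself, in 25 (Lamp5), 23 (Reln) and 23 (Nxph1) of the 26 cells. With such numbers most cells must hold all 3, so the 21 cells do not by themselves show a link between the genes. Exact 95% limits (Clopper-Pearson) were 55.5 and 99.7% for AC, 38.6 and 90.9% for CA3, and 29.2 and 100% for CA1. Ndnf joined the other 3 in some regions only. AC held 7 such cells of 10, with limits of 34.8 and 93.3%, and CA1 held 3 of 3. Among 13 CA3 cells there were 0, with an upper limit of 24.7%. All 5 genes together were read in 0 of 26 cells, since Cxcl14 was nearly absent. Such intervals cover counting error only, as amplified reads and cells of 1 mouse are not independent. The counts were the same with at least 10 reads required per gene and when each cell was thinned to 601781 reads, the lowest total.

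**Figure D1:**
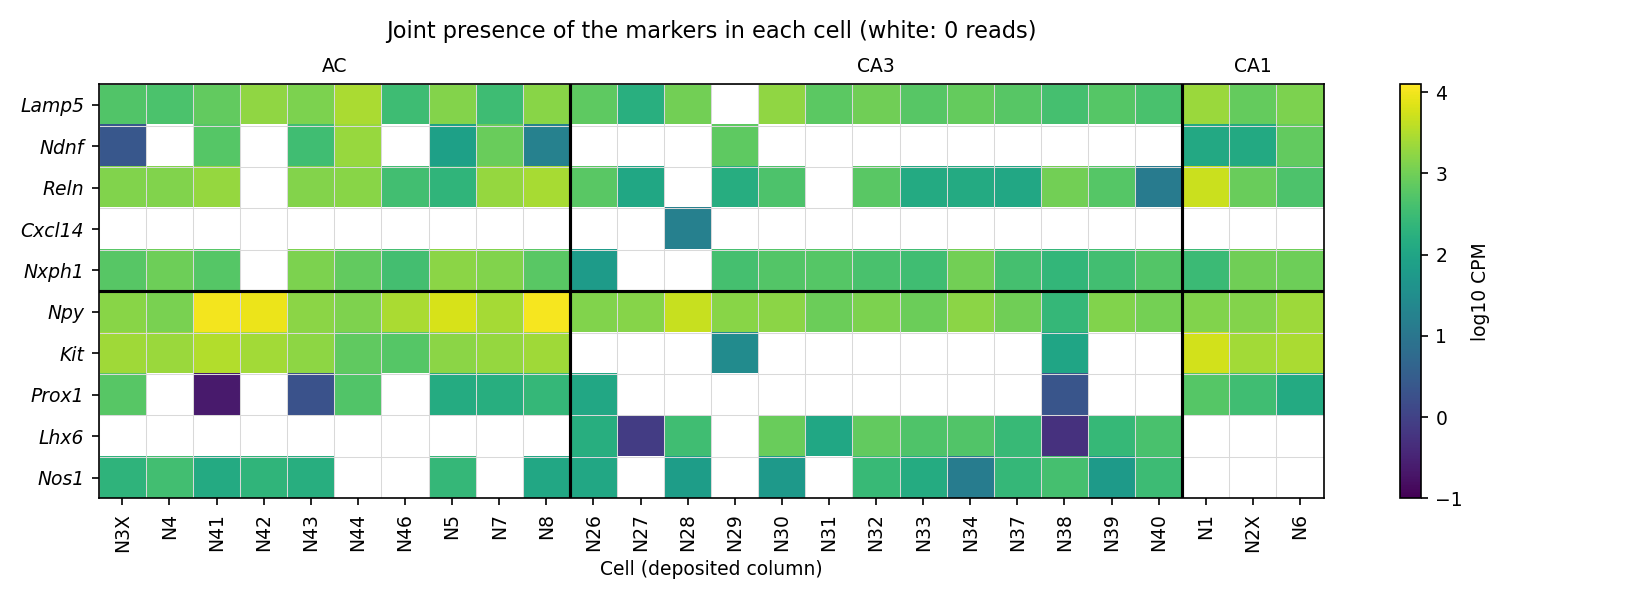
Colour gives the log10 CPM of each gene (rows) in each of 26 NPY-positive neurons (columns, grouped as AC, CA3 and CA1), and white stands for 0 reads. The upper 5 rows are the neurogliaform markers and the lower 5 rows are other genes named in the text. The Ndnf row is filled in 7 of 10 AC, 1 of 13 CA3 and 3 of 3 CA1 cells, and the Cxcl14 row in 1 CA3 cell.

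Only a few combinations occurred. In AC, 7 cells had Lamp5, Ndnf, Reln and Nxph1, the cells N4 and N46 had Lamp5, Reln and Nxph1, and N42 had Lamp5 alone. In CA3, 9 cells had Lamp5, Reln and Nxph1 and each of the other 4 had a combination of its own. N27 had Lamp5 and Reln, N31 had Lamp5 and Nxph1, N28 had Lamp5 and Cxcl14, and N29 had Ndnf, Reln and Nxph1. The mean number of members per cell was 3.50 ± 0.97 (SD, n = 10 cells) in AC, 2.77 ± 0.44 (n = 13) in CA3 and 4 in each of the 3 CA1 cells. All 5 genes were looked for in every cell, and no cell had more than 4.

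N42 and N28, which lacked both Reln and Nxph1, had the fewest detected genes of their regions. N42 had 3163 detected genes, the lowest number in AC, and N28 had 3679, the lowest in CA3. Among the 1202 genes that at least 80% of the other AC cells had, 27.95% were without a read in N42, against 4.63 to 26.3% of such genes in the other AC cells. For N28 this share was 31.7%, and in the remaining CA3 cells it ran from 1.22 to 24.4%. N29, without Lamp5, was not of this kind, with 6699 detected genes and 7.22% of widely read genes missing. N42 also had the highest summed level of 7 microglia genes in AC, 4570 CPM, while N28 had 523 and N29 had 0.947 CPM. N42 had 3836285 reads in all, more than the AC median of 3271800, and N28 had 2372578, fewer than the CA3 median of 3595383. The part of these other cells and of the low number of detected genes in the missing reads was not tested.

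Lamp5 was the most widely read member. Every AC cell had it, as for 6.90% of the 6597 genes, and so had every CA1 cell, as for 1979 of these genes. In AC its level ran from 324 CPM in N7 over a median of 997 to 2802 in N44, and 10 of 10 cells had reads. CA3 cells ran from 0 in N29 over a median of 607 to 1833 CPM in N30, with reads in 12 of 13 cells. The CA1 cells had 2202 CPM in N1, 791 in N2X and 1252 in N6. The regions overlapped, and apart from N29 the lowest CA3 cell was N27 with 169 CPM.

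On the scale of log2(normalized count + 1) the mean Lamp5 level was 12.09 ± 0.77 (SD over 3 cells) in CA1, 11.58 ± 1.21 (10 cells) in AC and 10.20 ± 3.16 (13 cells) in CA3. CA1 and AC, neighbours in this order, differed by 0.51, less than either SD. AC and CA3 differed by 1.38, more than the SD in AC and less than that in CA3. Without N29 the difference between AC and CA3 was 0.53, and over the 12 CA3 cells with reads the mean was 11.05 ± 0.80.

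Reads on Nxph1 were present in 9 AC cells out of 10 and in 11 CA3 cells out of 13 (95% limits 54.6 and 98.1%). In AC its level ran from 0 in N42 over a median of 686 to 1634 CPM in N5. The CA3 cells ran from 0 in N27 and N28 over a median of 391 to 1025 CPM in N34, and the lowest cell with reads was N26 with 63.7. In CA1 it reached 301 CPM in N1, 1008 in N2X and 939.6 in N6. Every cell with reads had at least 142 of them, and the 3 CA1 cells lay within the range of the AC and CA3 cells.

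Mean log2 levels of Nxph1 were 11.11 ± 0.92 (SD) in CA1, 10.28 ± 3.66 in AC and 8.70 ± 3.97 in CA3. The differences of 0.83 between CA1 and AC and of 1.58 between AC and CA3 were each below the SDs of both regions compared. The second was 2.72 without N42, which leaves an SD of 0.61 in AC, and 0.85 without N27 or N28. Among cells with reads, a choice made after the data were seen, AC had a mean of 11.42 ± 0.61 (n = 9) and CA3 of 10.28 ± 1.02 (n = 11), and their difference of 1.14 was larger than either SD, while CA1 minus AC was -0.31. With all labelled AC and CA3 columns included the difference over all columns, with or without reads, was -0.045. Of all reads of a region Nxph1 had 709 CPM in AC, 422 in CA3 and 907 in CA1, with exact Poisson 95% limits of 416 and 428 in CA3 and of 881 and 933 in CA1. These limits treat reads as independent and leave out the spread over cells, so they do not bear on the difference of regions. N2X alone gave 70.7% of the CA1 reads.

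Reln, the gene for the secreted protein that guides neuronal positioning and acts at adult synapses, was read in 9 of 10 AC, 11 of 13 CA3 and 3 of 3 CA1 cells. AC levels ran from 0 in N42 over a median of 1409 to 2730 CPM in N8, and 7 of the 10 cells had 1358 CPM or more. In CA3 the range was 0 in N28 and N31 over a median of 133 to 1048 CPM in N38. The CA1 cells had 4874 CPM in N1, 842 in N2X and 479 in N6. Thus 7 AC cells lay above every CA3 cell, and 3 AC cells, N42, N46 and N5, lay within the CA3 range.

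The mean log2 level of Reln was 12.04 ± 1.82 (SD) in CA1, 10.73 ± 3.96 in AC and 8.03 ± 3.91 in CA3. Neither the step of 1.31 from AC to CA1 nor that of 2.69 from CA3 to AC exceeded the SDs of both regions compared. The step from AC to CA1 was 0.12 over cells with reads, which leaves out N42, and by medians of CPM (842 and 1409) and summed CPM (1235 and 1449.8) AC was higher. Leaving out cell N42 of AC raised the second to 3.88. Among cells with reads the means were 11.92 ± 1.28 in AC (n = 9) and 9.49 ± 1.76 in CA3 (n = 11), and their difference of 2.42 was larger than either SD. In CA3 the cells with reads spread widely, from 13.01 CPM in N40 with 56 reads, and 6 of them, N27, N29, N33, N34, N37 and N40, had 148 CPM or less.

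Ndnf reads were found in 7 AC cells, 1 CA3 cell and 3 CA1 cells. Among the AC cells that had it, its log2 level spread with an SD of 3.47, against at most 1.28 for the other members. In AC it was 2.47 CPM in N3X, 17.2 in N8, 80.9 in N5, 351 in N43, 567 in N41, 861 in N7 and 2047 in N44. N3X thus had 10 reads while N44 had 6748, or 53.8% of all Ndnf reads of AC. CA1 cells had 120 CPM in N1, 127 in N2X and 749 in N6, inside the AC range, and the CA3 cell N29 had 671 CPM.

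The mean log2 level of Ndnf was 9.57 ± 1.41 (SD) in CA1, 6.26 ± 5.16 in AC and 0.85 ± 3.07 in CA3. CA1 and AC differed by 3.31, more than the SD in CA1 and less than that in AC. The 5.41 between AC and CA3 was more than either SD and ranged from 4.67 without N44 to 6.26 without N29. It was smaller with all labelled columns (2.66), summed CPM (3.08), a pseudocount of 10 (3.47), DESeq2 factors (3.68) and thinned reads (3.97). With medians (6.95) and a pseudocount of 0.1 (7.46) it was larger. Over cells with reads the order was the opposite, with a mean of 8.94 in 7 AC cells against 11.06 in N29, the 1 CA3 cell.

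Cxcl14 was listed at 0 in all AC and all CA1 cells. A count of 0 allows up to 0.0881 CPM over the AC cells, from 3 reads in 34053508, and up to 0.596 CPM over the CA1 cells. These bounds and the interval given next treat reads as independent, which amplified reads are not. They are limits on sequenced reads and not on the transcripts in a cell. In CA3, N28 had 40 reads (16.9 CPM) and the other 12 cells had 0, which gave 0.819 CPM over the region (95% interval 0.585 to 1.11). In N28 the 7 astrocyte genes summed to 407 CPM, against 660 in N39 and 3015 in N4, which had 0 Cxcl14 reads. The 7 markers of other interneuron classes summed to 1451 CPM in N28, the highest of the CA3 cells. The origin of its 40 reads was not tested. Cxcl14 thus had no read in 25 of the 26 neurons, and its log2 mean of 0.45 ± 1.61 in CA3 rests on N28 alone.

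**Figure D2:**
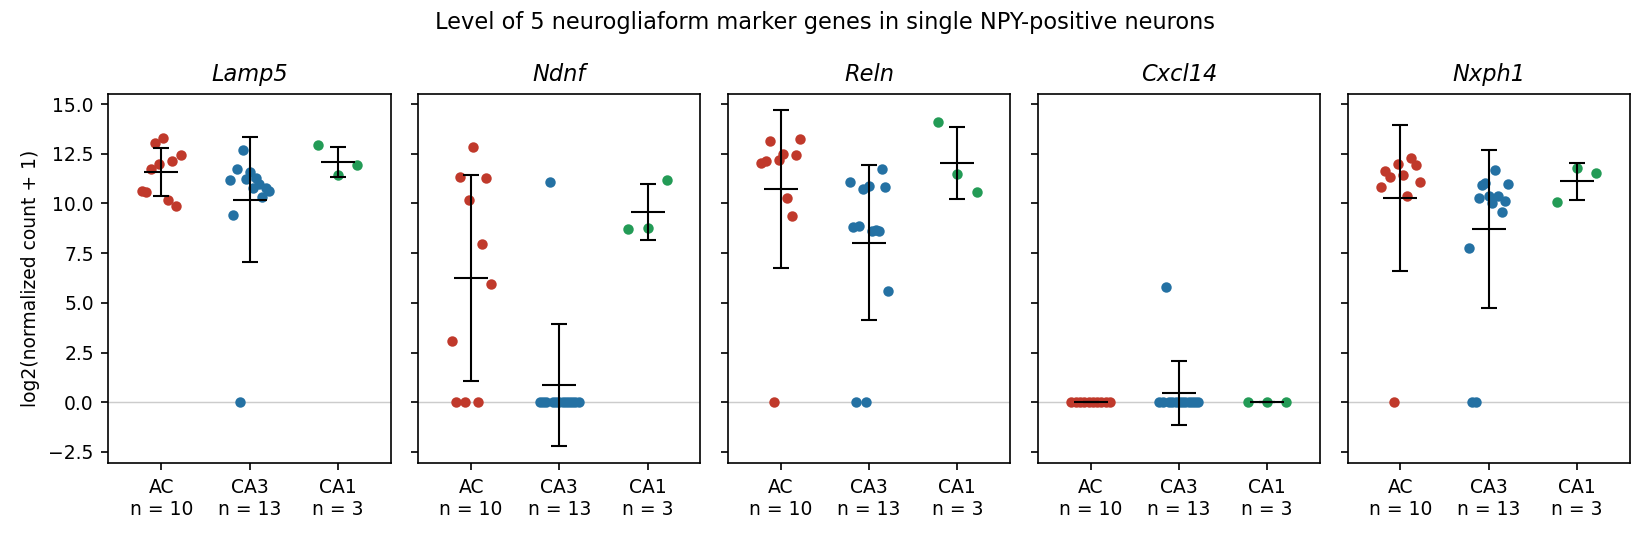
Points are single cells, coloured by region, on the scale of log2(normalized count + 1) with 10 AC, 13 CA3 and 3 CA1 cells. Horizontal bars are means and whiskers are 1 SD over cells, which reach below 0 for Ndnf and Cxcl14 in CA3, where 1 cell has reads and 12 are at 0. For Reln and Nxph1, N42 is the 1 AC cell at 0.

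The 5 genes were then set beside all genes. A difference of at least 1 on the log2 scale was taken as a call, a size chosen with results of these data known. Between AC and CA3, Lamp5, Ndnf, Reln and Nxph1 were higher in AC by at least 1, which was so for 15.9% of the 6597 genes, and 47.3% of these genes were lower in AC by as much. Lamp5 fell short of 1 with medians (0.87), summed CPM (0.88), all labelled columns (0.65) and without N29 (0.53). Nxph1 did so with summed CPM (0.75), with all labelled columns, as given above, and without N27 or N28 (0.85 each). Of the 7 astrocyte genes 6 were higher in AC than in CA3, 3 of them by at least 1 (median 0.92), and 5 were higher in CA1 than in CA3 by at least 1 (median 3.67). Their summed level per cell had a median of 217 CPM in AC, 37.9 in CA3 and 211 in CA1, and its part in the members' differences was not tested. The median difference over all genes was -0.87, and CA3 cells had more detected genes, a median of 5704 against 5007.5 in AC. The part of this in the differences was not tested. Between CA1 and CA3 the same 4 genes were higher in CA1 by at least 1, by 1.90 (Lamp5), 8.71 (Ndnf), 4.01 (Reln) and 2.41 (Nxph1), beside 29.6% of all genes that were higher and 40.2% that were lower. Over cells with reads these differences were 1.05 for Lamp5, -1.49 for Ndnf with 1 CA3 cell, 2.55 for Reln and 0.83 for Nxph1, and by summed CPM Lamp5 in CA1 was 1.66 times its CA3 value, less than 1 on the log2 scale. Between CA1 and AC, 2 of the 5 were higher in CA1 by at least 1, Ndnf and Reln, beside 41.4% of all genes that were higher and 27.1% that were lower. By summed CPM both were lower in CA1, at 0.756 (Ndnf) and 0.852 (Reln) times the AC value, and over cells with reads CA1 was higher by 0.63 and 0.12. AC enters the first and the third of these comparisons, CA3 the first and the second, and CA1 the second and the third, so they share cells.

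As single-cell reads also depend on transcript length, the mix of the 5 genes was compared per kilobase of exon. Lamp5 led in most cells, with a median share of 54.3% of the summed reads per kilobase in AC (19.5 to 100%), 69.9% in CA3 (0 to 97.5%) and 59.4% in CA1 (50.9 to 72.8%). It was the leading member in 8 of 10 AC, 12 of 13 CA3 and 3 of 3 CA1 cells, and Nxph1 led in N4, N7 and N29. The median share of Nxph1 was 33.8% in AC, 25.8% in CA3 and 27.5% in CA1. Reln, whose exons add up to the greatest length of the 5, made up 10.8% in AC, 2.65% in CA3 and 6.69% in CA1, and its highest share in any cell was 19.9%, in N1.

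The order by length-corrected level was the same in each region. Median CPM per kilobase of exon were 340 for Lamp5, 144 for Nxph1, 59.4 for Reln and 4.85 for Ndnf in AC. In CA3 the medians were 207, 82.2, 5.60 and 0 in the same order of genes, and in CA1 they were 427, 198, 35.5 and 12.6. With the length of the longest transcript in place of all exons, the median share of Reln in AC was 13.4%, and the numbers of cells led by each gene did not change. Ndnf made its largest contribution in N29, where it held 42.8% and Nxph1 53.1%.

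**Figure D3:**
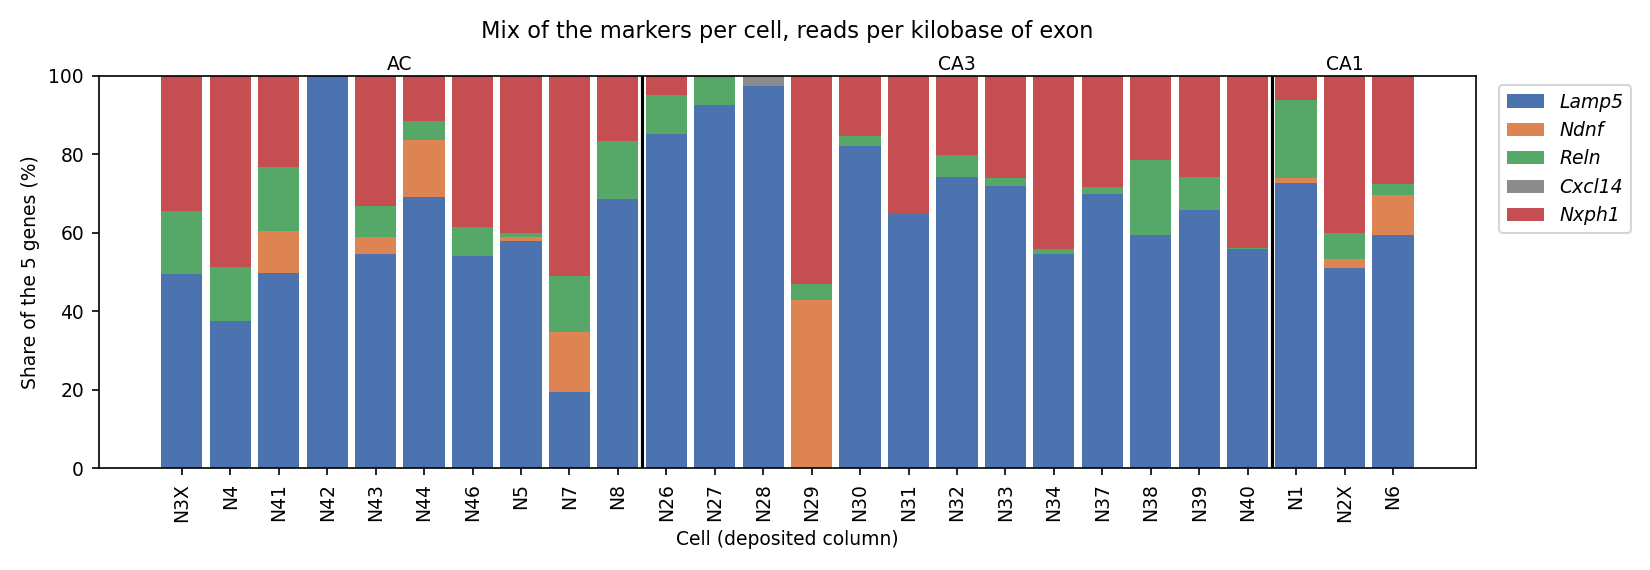
Each bar is 1 cell and shows the share of the 5 markers in their summed reads per kilobase of exon, in percent. Lamp5 is the largest part in 23 of the 26 cells, and the bars of N4, N7 and N29 are led by Nxph1.

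Ndnf was set beside markers of origin, after its values were seen. In AC, Prox1, a transcription factor of caudal interneurons, was read in 7 cells, and these were the 7 with Ndnf. Some of these reads were few, with 1 Prox1 read in N41 and 6 in N43. In CA1 all 3 cells had both genes, and no AC or CA1 cell had a read on Lhx6, a factor of medial interneurons. In CA3, 12 cells had Lhx6 reads, and all of these 12 had Lamp5 while 0 had Ndnf. N27 and N38 had only 2 Lhx6 reads each, and N38 also had 8 reads on Prox1 and 359 on Kit. The remaining cell, N29, had Ndnf without Lamp5, and it had 0 reads on Lhx6, Prox1 and Nos1 and 90 on Kit. Prox1 was read in 2 CA3 cells, N26 and N38, neither of which had Ndnf. Prox1 and Lhx6 belong to a list of 8 origin factors, and others of it divided the regions less. Of further medial factors, Nkx2-1 was read in 0 AC and 6 CA3 cells, Satb1 in 1 and 2, and Sox6 in 4 and 3. Of further caudal factors, Nr2f1 was read in 7 AC and 6 CA3 cells, Nfix in 10 and 10, and Nr2f2 in 3 and 0.

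Kit, a receptor tyrosine kinase found in caudal neurogliaform cells, was read in 10 of 10 AC and 3 of 3 CA1 cells, thus also in the cells without Ndnf. Nos1, the neuronal nitric oxide synthase, was read in 7 AC cells, of which 5 had Ndnf, and in 0 of 3 CA1 cells. In CA3, 10 cells had Nos1, and all 10 had Lamp5 and 9 each had Reln and Nxph1. Of the 3 CA3 cells without Nos1, 2 each had Lamp5, Reln and Nxph1.

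Rank correlations over the 26 cells describe how the members moved with each other. Cells differ in depth and region, so these values mix both and carry no p. Ndnf ran with Reln at a Spearman correlation of 0.60 and with Nxph1 at 0.55. Within AC alone these were 0.64 and 0.51 over 10 cells, and within CA3, where 1 cell had Ndnf, they were 0.08 and 0 over 13 cells. Lamp5 stood at 0.20 with Reln, 0.20 with Nxph1 and 0.28 with Ndnf, and within CA3 its value with Ndnf was -0.46, set by N29. The correlation of the members with the number of detected genes lay between -0.20 and 0.14 over the 26 cells, and that of Nxph1 was 0.64 within AC.

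Among 6597 genes the ones most like each member in level over the 26 cells were listed. For Reln these were Igsf8 (0.79), Macf1 (0.77), Camkv (0.76), Clasrp (0.75) and PISD (0.73). For Ndnf they were Gins2 (0.73), Prox1 (0.71), Spryd3 (0.70), Necab1 (0.70) and Cnr1 (0.69), of which Cnr1 encodes the main cannabinoid receptor of the brain. Lamp5 was closest to Mmp17 (0.69), Cdk16 (0.67), Fxyd7 (0.67), St7 (0.66) and Slc1a1 (0.66), and Nxph1 to Usp2 (0.68), Drosha (0.67), Mtss1l (0.66), Ralgps1 (0.65) and Abr (0.65). Many of these values differed within a region. That of Prox1 with Ndnf was 0.60 in AC and -0.12 in CA3, and that of Abr with Nxph1 was 0.50 and 0.02. For Cxcl14, read in 1 cell, no likeness was computed.

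Partners of the encoded proteins were read from lists. Of 9 genes for the reelin receptors and the steps behind them, Lrp8 and Crkl were higher in AC than in CA3 by at least 1 and Src and Rapgef1 were lower, and the median difference of the 9 was -0.40. Of the 8 read in at least 10 of the 26 cells, 2 were higher and 1 was lower by as much, beside 15.9% and 47.3% of all genes read so widely. Vldlr and Dab1, a reelin receptor and the adaptor that reelin signals through, had reads in 7 and 8 of 10 AC cells and in 10 and 12 of 13 CA3 cells. Their mean levels differed by 0.62 and -0.40, below the SD in both regions. Reads on the receiving side of reelin were thus present in both regions.

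Nxph1 was the only one of the 4 neurexophilin genes with more than a trace of reads. Nxph2 and Nxph3 had 0 reads in the 26 cells and Nxph4 was read in 2 CA3 cells. Of the neurexin genes, Nrxn3 was read in 10 of 10 AC, 10 of 13 CA3 and 3 of 3 CA1 cells, and Nrxn2 in 7, 9 and 3. Nrxn3 was higher in AC by 2.37 and Nrxn2 by 1.77, each less than the SD in both regions. Of the other LAMP family genes, Lamp1 and Lamp2, which coat lysosomes in all cells, were read in 7 AC cells each and in 9 and 10 CA3 cells, and no family member differed by 1 between AC and CA3. Beside Cxcl14, its relative Cxcl12 was read in 1 CA3 cell, Cxcr4 in 0 cells, and Ackr3, a scavenging chemokine receptor, in 5 of 13 CA3 and 0 of 10 AC cells. FGF receptor genes were read in at most 2 AC cells, 1 CA3 cell and 1 CA1 cell each.

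Of 16 other genes associated with neurogliaform cells, 6 were higher in AC than in CA3 by at least 1 and 4 were lower, with a median of 0.36. All 10 are among the 12 read in at least 10 of the 26 cells, and of all genes read so widely 15.9% were higher and 47.3% lower. Those higher were Npy, Cplx3, Kit, Car4, Sv2c and Sema5a, and those lower were Id2, Gabrd, Hapln1 and Cacna2d1. Kit differed by 11.40, Sv2c by 9.75, Car4 by 6.81 and Npy by 1.51, each more than the SD in either region. Hapln1 (-1.82), Cacna2d1 (-2.52) and Sema5a (2.70) differed by less than either SD. Gabrd, which encodes the delta subunit of extrasynaptic GABA receptors, had reads in 3 of 10 AC cells and 11 of 13 CA3 cells and differed by -5.04. Id2, a transcriptional regulator, was read in all cells and differed by -2.38, more than the SD in either region. Cplx3, a complexin, was read in 8 AC, 8 CA3 and 3 CA1 cells and differed by 3.59, less than the SD in either region. Egln3 and Ntn1 had 0 reads in the 26 cells.

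In the columns outside the comparison few members were read together: apart from N4X, with Lamp5, Reln and Nxph1, N51 had Reln and Nxph1 and no other column had more than 1 member. Cxcl14 was read in 6 of the 21 columns, 2 of the dentate gyrus, 3 of CA3 and 1 of AC, with 57 to 303 reads and 369 to 2002 CPM. None of these 6 had a read on Gad1, Gad2, Npy or any other member. In all 6 the 7 astrocyte genes summed to between 31129 and 37762 CPM, with 4 to 7 of them read. In N11, 1 of the 6, the listed oligodendrocyte genes summed to 39072 CPM, above its astrocyte sum of 37762. In the rest of the 6 they summed to at most 2520 CPM, in N17. In the 15 columns without Cxcl14 this sum was at most 3033 CPM, and in the 26 neurons it was at most 3015, in N4. Of the 7 astrocyte genes Aqp4 had 0 reads in all 26 neurons, while Slc1a2 was read in 18, Aldoc and Slc1a3 in 9 each, Gja1 in 3, Gfap in 2 and Aldh1l1 in 1. The labels give all 6 as NPY-positive neurons.

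**Figure D4:**
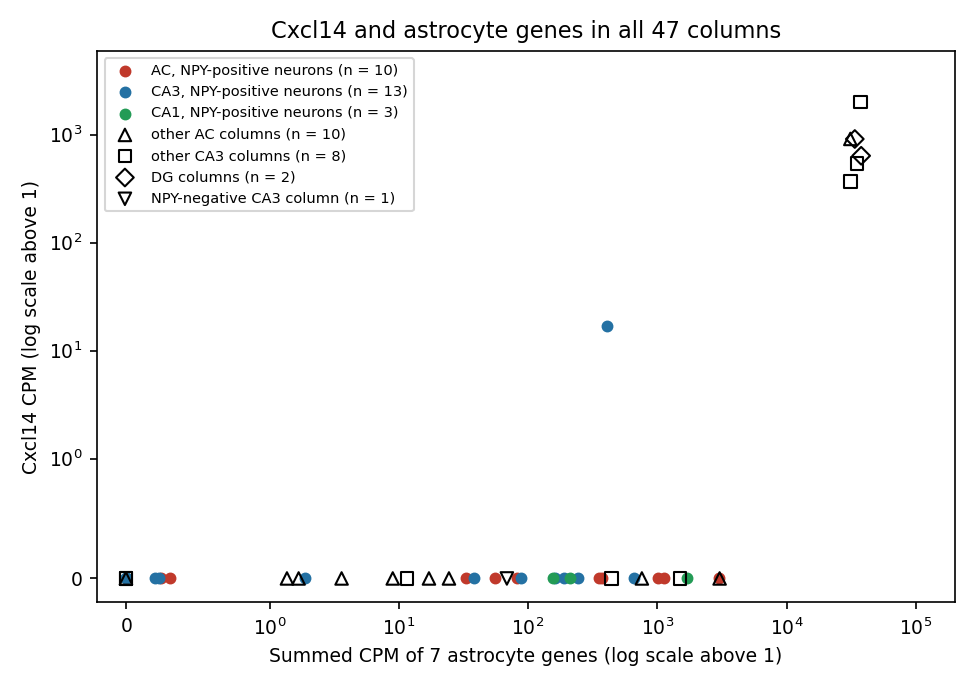
Each point is 1 of the 47 deposited columns, with the summed CPM of 7 astrocyte genes on the x axis and Cxcl14 CPM on the y axis, both logarithmic above 1 and linear below. The 6 columns with 369 to 2002 CPM of Cxcl14 lie at an astrocyte sum of 31129 or more, and the 26 neurons (filled points) lie at 0 on the y axis except N28 with 16.9.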

How the data were processed

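Reads were counted per gene symbol in single neurons sampled with a patch pipette. The deposited values are raw counts. Per the methods the authors trimmed reads (Trimmomatic, Flexbar), aligned them to GRCm38 by STAR and counted them by HTSeq. The submitters' processing notes list featureCounts in place of HTSeq, and which of them made the table was not settled. Where several Ensembl identifiers gave 1 symbol, the authors averaged them.

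The 26 cells were taken by column name. Cells, genes, lists and the size of a call were chosen with earlier results of these data known. The column of each cell was matched to its sample by title.

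Counts were divided by pooled size factors (computeSumFactors, scran 1.30.0, R 4.3.3, pools of 10 and 20 cells, all 26 cells), and levels are log2(normalized count + 1). Differences were computed for all genes and summarised over the 6597 detected in 10 or more of these cells. No model was fitted and no p-value was computed. Alternatives were library size, TMM of edgeR 4.0.16, poscounts factors of DESeq2 1.42.0, scran factors without CA1, pseudocounts of 10 and 0.1, medians, summed CPM, a limit of 10 reads, thinning to 601781 reads (seed 1), all labelled columns with N4 and N4X averaged in the differences and N4 alone in the counts of cells, and each cell left out. Exon lengths and coordinates came from GENCODE M21, which held all 111 listed genes. Named genes were the 5 members, the genes of the lists (1 gene is not reported here, and lists of other cell types are given mostly as sums) and, for each member, the 5 genes with the highest Spearman correlation over the 26 cells. Versions of Python, pandas, numpy, matplotlib and scipy were 3.11.15, 2.3.3, 2.4.6, 3.10.9 and 1.17.1. The difference of levels was tested on simulated data. These were drawn without a separate loss of genes in single cells, so they do not bear on differences that rest on 1 cell.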

Additional observations from a re-analysis of the deposited data

Results flagged for a closer look

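Among the 10 AC cells, N42 stood apart for Reln and for Nxph1, at a level of 0 in both, and in the number of members read, with 1 of 5. The gap to the next cell made up a share of 0.708, 0.844 and 0.667 of the whole range, above Dixon's limit for 10 samples. This was so for 3 of the 5 sets of AC values looked at, and the 3 are not independent as they share the cell. The limit assumes independent values of 1 normal distribution, so its chance rate of about 1 in 20 does not apply here. A level of 0 in a single cell lies far from the others almost by construction. The flag thus restates the missing reads of N42 and is no test.

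Reads on the members were also present in columns outside the main comparisons, above what a count of 0 allows. Cxcl14 took 825 CPM of the summed reads in the 2 dentate gyrus columns, 14.98 CPM in the other 9 AC columns (N4X not counted) and 118 CPM in the other 8 CA3 columns. In the other AC columns Lamp5 took 282 CPM, nearly all of it in N48, Reln 1193 CPM, nearly all in N49 and N51, and Nxph1 1010.3 CPM, in N45 and N51. In the other CA3 columns Nxph1 took 851 CPM, of which 3423 of 3585 reads were in N36. The NPY-negative CA3 column had 0 reads on all 5 genes.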

How the results depend on the processing

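No paired analysis was possible because no label ties a cell to an animal and the differences come from no test. Of 478 recomputed values, 467 moved by less than 1 SD over cells, or by at most 1.5 times for counts, without a change of sign. Most of the 478 left out 1 cell, a change that can seldom pass these limits. The number 467 is therefore no measure of how firm the results are. Among the 467 are a Cxcl14 difference that went from -0.45 to 0 with medians and without N28, and the Lamp5 difference of 0.53 without N29, below a call. The difference of Nxph1 between AC and CA3 turned to -0.045 with all labelled columns, and that of Ndnf to -2.12 over the cells with a read, an alternative chosen after the data were seen in which CA3 is 1 cell. All labelled columns gave 1 AC and 4 CA3 columns with Cxcl14. Leaving out 1 cell took the number of CA3 cells with Ndnf to 0 to 1 (without N29) and with Cxcl14 to 0 to 1 (without N28). It also moved the difference of Lamp5 to between 0.53 (without N29) and 1.59, and that of Nxph1 to between 0.85 (without N27) and 2.72 (without N42). As log2(CPM + 1), which is on a smaller scale, mean levels were 9.78 for Lamp5 in AC and 10.34, 7.82 and 9.36 for Lamp5, Ndnf and Nxph1 in CA1. With every gene read in any of the 23 AC and CA3 cells, 1854 of 13624 genes were higher in AC by at least 1, against 1049 of 6597. The numbers for higher and lower were 833 and 2491 with DESeq2 factors and 1049 and 3120 with scran factors. CA1 means rest on 3 cells, the fewest of the regions.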
